A study of Mus musculus with 2 samples.

Results

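Kinesins are motor proteins that walk along microtubules or take them apart at their ends. In dividing cells they build the spindle, move chromosomes and complete the midbody, in cilia and flagella they carry components along the axoneme, and in most cells they haul vesicles and organelles. A testis holds all of these activities side by side, because spermatogonia divide by mitosis, spermatocytes by meiosis, and spermatids then grow a flagellum and reshape the nucleus along a microtubule manchette. The genes described here were chosen by symbol alone, as rows named Kif with a number and at most a pair of letters, which gave 38 of the 36547 genes listed in either table. Levels were not used in the choice.

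The study profiled testis cells of 12-week-old C57BL/6 mice by single-cell RNA sequencing with unique molecular identifiers (UMIs), 1 library from wild-type animals (WT) and 1 from Alkbh5-/- animals (KO), which lack the RNA demethylase ALKBH5 in all tissues. The WT library held 5756 barcodes and 80283221 UMIs, with a median of 10905.5 UMIs per barcode, and the KO library held 7012 barcodes and 82056760 UMIs, with a median of 9117.5. Alkbh5 itself had 607 UMIs in WT (7.56 UMIs per 1000000 UMIs, CPM) and 5 UMIs in KO (0.0609 CPM), and 45 barcode sequences occurred in both libraries. With 1 library per genotype no difference between genotypes could be tested, so each is given as a value with a 95% interval that covers counting error only.

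Cells fell into 17 clusters, which were named from marker genes as 11 classes: spermatogonia-like, early and late spermatocyte-like, early-, mid- and late-stage round spermatid-like, sperm-like, Leydig-like, Sertoli-like, macrophage-like and endothelial-like. These class names are used below in that marker-based sense, and single germ cell clusters carry 1 leading gene in their name. Several classes differed in size between the libraries: spermatogonia numbered 190 in WT and 1064 in KO, Leydig cells 94 and 1171, Sertoli cells 48 and 468, early spermatocytes 35 and 121, and macrophages 26 and 81. Endothelial cells numbered 1 and 24 and were not compared. The late-stage round spermatid name rests on 4 of 8 markers.

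All 38 kinesin genes were listed in both libraries, with 127440 UMIs in WT (0.159% of the library) and 119327 in KO (0.145%). Of these genes, 34 had at least 100 UMIs over both libraries. The other 4 were Kif3c, with 2 UMIs in the WT and 36 in the KO library, Kif26a with 8 and 53, Kif26b with 22 and 24, and Kif28 with 8 and 4. By known role, 13 members act at the spindle or midbody, 9 in cilia or the axoneme and 12 in cargo transport, 3 are other motors, and Kif1bp encodes a kinesin-binding protein with no motor of its own. Summed over all members, the kinesin level in WT was 1673 CPM in spermatogonia, 1499 in late spermatocytes, 1637 in early-stage, 2056 in mid-stage and 1956 in late-stage round spermatids, 1219 in sperm and 595 in Leydig cells. The same sums in KO were 1640, 1452, 1588, 2015, 1896, 1260 and 513 CPM. Kinesin transcripts were therefore present at every germ cell stage, and each stage drew on different members.

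**Figure D1:**
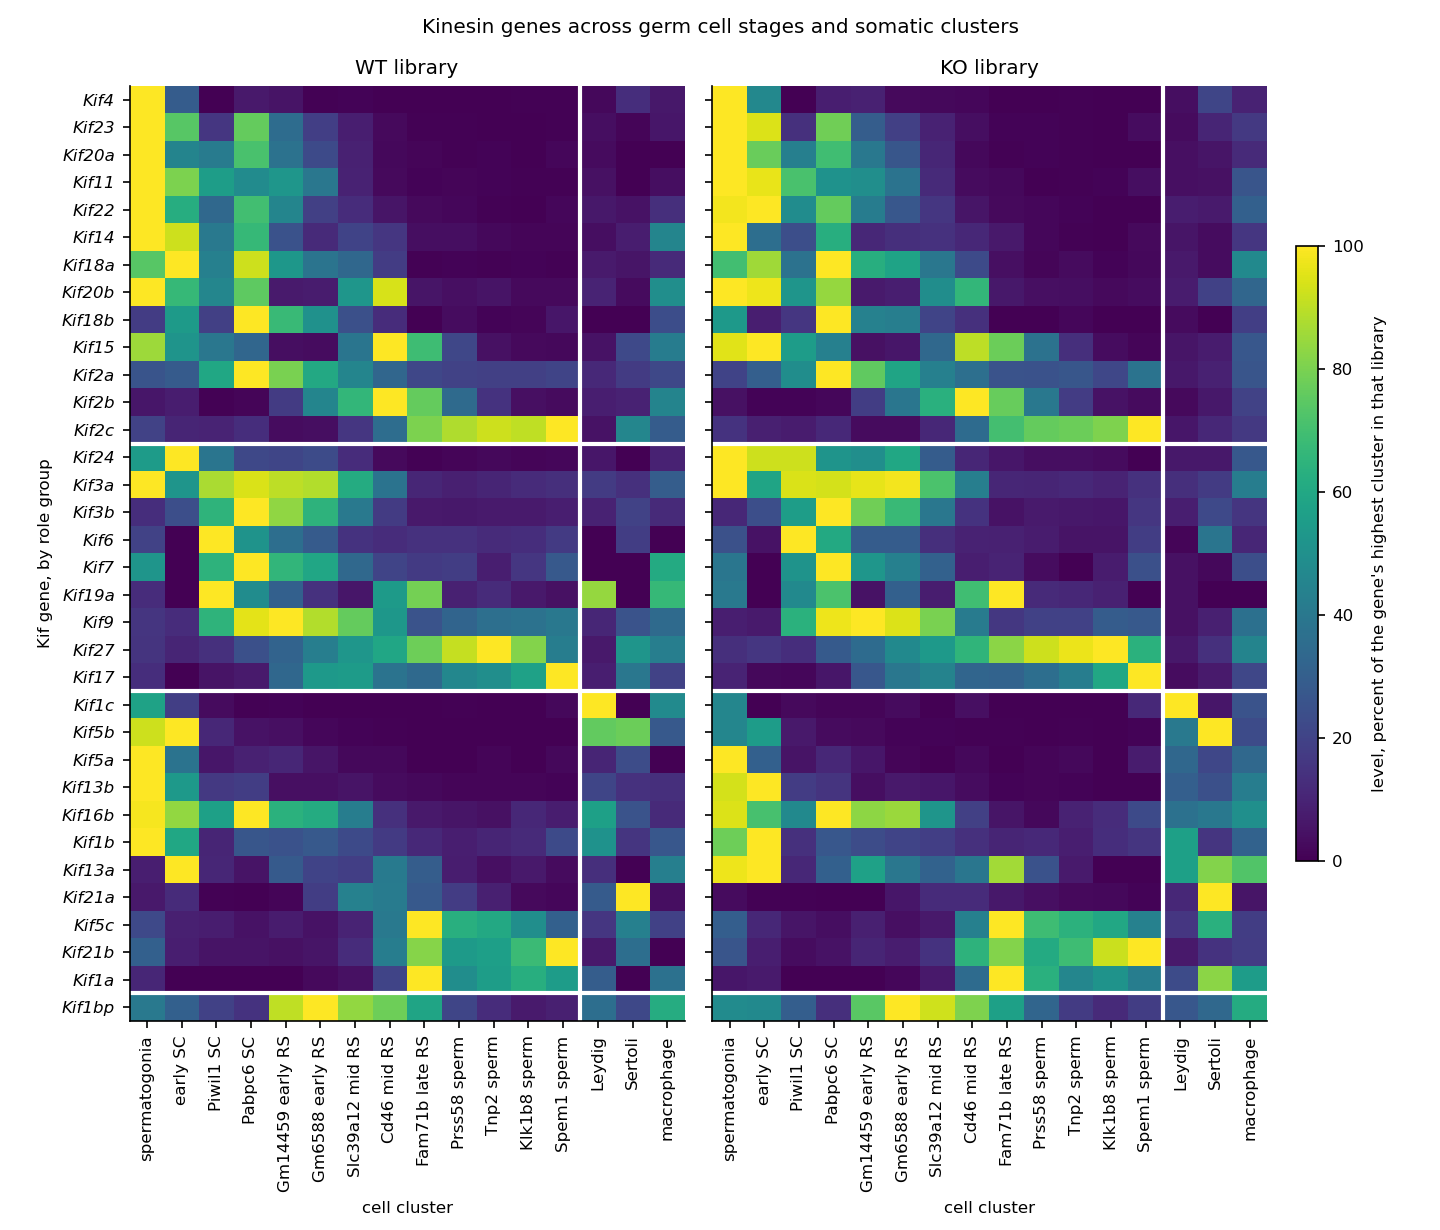
Level of each kinesin gene in 13 germ cell clusters and 3 somatic clusters, as percent of the gene's own highest cluster in that library (colour), with WT on the left and KO on the right and the genes grouped by role. Mitotic motors such as Kif4, Kif23 and Kif11 are brightest in spermatogonia, Kif2a, Kif3b and Kif9 in spermatocytes and early round spermatids, Kif2b in mid-stage round spermatids, and Kif2c, Kif17 and Kif27 in late clusters of both libraries.

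In WT, 33 members had enough UMIs (at least 50) to name the class with the highest level, among classes of at least 50 cells. Spermatogonia held the highest level of 15 of them, against 23.6% of all genes, late spermatocytes of 5 (22.8% of all genes), early-stage round spermatids of 2 (12.2%), mid-stage of 2 (13.7%), late-stage of 4 (9.47%), sperm of 3 (5.59%) and Leydig cells of 2 (12.6%). The highest class was the same in KO for 24 of 33 members, beside 63.1% of all genes. The 9 members that differed were Kif1b, Kif5b, Kif13a, Kif13b, Kif15, Kif18a, Kif19a, Kif21a and Kif22. Part of this difference follows from class size. Early spermatocytes, the highest class of 6 members in KO, and Sertoli cells, that of 2, were too few in WT to be eligible. With the comparison limited to classes of at least 50 cells in both libraries, 30 of 33 members had the same highest class, beside 83.4% of all genes.

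The promoters of many spindle genes share a short element, the cell cycle genes homology region (CHR), which is bound by repressors in resting cells. RefSeq promoter windows of 300 bases on GRCm38.p6 were found for 30 of the 38 members and searched on both strands for TTTGAA, the core of the CHR. Of 12 spindle or midbody members, 9 held it (75.0%), against 18.1% of 27025 promoters of all genes, 1 of 8 cilium members and 0 of 8 cargo members. The 9 were Kif4, Kif11, Kif14, Kif15, Kif18b, Kif20b, Kif22, Kif23 and Kif2c. The windows below show the element in capitals, as TTTGAA or its reverse TTCAAA, in 3 members that were highest in spermatogonia and in Kif2c, which was highest in sperm although it carries the same letters.
Kif11, chr19:37376351-37376380, plus strand: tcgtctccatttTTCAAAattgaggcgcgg
Kif23, chr9:61946780-61946809, minus strand: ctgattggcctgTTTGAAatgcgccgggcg
Kif15, chr9:122951050-122951079, plus strand: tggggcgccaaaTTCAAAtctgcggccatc
Kif2c, chr4:117178858-117178887, minus strand: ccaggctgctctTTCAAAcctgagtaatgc
The CCAAT box, also on either strand, was present in 7 of the 12 spindle or midbody promoters (58.3%) and in 37.9% of all promoters. A match describes letters in the window and is not evidence of binding.

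Among the spindle and midbody motors, 9 of 13 were highest in WT spermatogonia, the class that divides by mitosis. Kif11 encodes the motor that pushes spindle poles apart. Its level was 84.2 CPM in WT spermatogonia (interval 71.1 to 99.2) and 94.6 CPM in KO (88.1 to 101). KO early spermatocytes were close to that, at 91.4 CPM. The level was lower in late spermatocytes, with 43.1 CPM in WT and 57.4 CPM in KO. In mid-stage round spermatids it was 5.35 and 7.09 CPM. A Kif11 UMI was found in 41.1% of WT spermatogonia and 44.7% of KO spermatogonia, or in 25.8% and 34.6% once each cell was thinned to 5000 UMIs. In sperm, which do not divide, the corresponding shares were 0.749% and 0.686%, or 0.374% and 0.482% after thinning. Median depths were 7770 and 6884.5 UMIs per cell in the spermatogonia of WT and KO and 8921.5 and 8377 in the sperm. Among the germ cell clusters Kif11 was thus highest in spermatogonia in both libraries, though only narrowly above early spermatocytes in KO.

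Kif23, a subunit of the centralspindlin complex of the midzone, had a profile with 2 high points. Its level was 154 CPM in WT and 159 CPM in KO spermatogonia, 24.2 and 22.3 CPM in Piwil1 spermatocytes, and 117 and 125 CPM in Pabpc6 spermatocytes. Kif18a, which dampens chromosome movements on the metaphase plate, had 57.9 and 56.6 CPM in spermatogonia and 78.3 and 69.7 CPM in early spermatocytes. It had 34.2 and 30.7 CPM in Piwil1 spermatocytes, and 72.2 and 81.4 CPM in Pabpc6 spermatocytes. Kif20b, a cytokinesis motor, had 3 high points: 143 CPM in WT spermatogonia, 108 CPM in Pabpc6 spermatocytes and 135 CPM in Cd46 mid-stage round spermatids, with only 10.2 CPM in the Gm14459 early round spermatids between them. The KO library gave 155, 130, 102 and 11.1 CPM at the same 4 points. Both libraries thus showed a low in Piwil1 spermatocytes for Kif23 and Kif18a, and a low in early round spermatids for Kif20b.

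Kif15, a motor that crosslinks spindle microtubules, followed a similar course to Kif20b after meiosis. Its level was 100 CPM in WT spermatogonia, 4.22 CPM in Gm14459 early round spermatids and 117 CPM in Cd46 mid-stage round spermatids. The KO values at these clusters were 106, 5.01 and 99.7 CPM. A motor named for mitosis was therefore as high in haploid Cd46 spermatids as in WT spermatogonia, and the WT intervals of the 2 levels overlapped.

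Of the other mitotic motors, Kif20a, Kif14, Kif22 and Kif4 were highest in WT spermatogonia, and Kif18b was not. Kif20a and Kif14, which act at the midzone and midbody, had 31.6 and 26.9 CPM in WT spermatogonia and 31.1 and 31.7 CPM in KO. Kif22, a chromokinesin, had 45.6 CPM in WT and 43.7 CPM in KO, and Kif18b, a regulator of astral microtubules, was highest in Pabpc6 spermatocytes, with 13.04 and 13.39 CPM. Kif18b had 2.34 CPM in WT and 7.17 CPM in KO spermatogonia and 8.84 and 5.88 CPM in Gm14459 early round spermatids. Kif4, a chromokinesin and midzone motor, is the 1 member on the X chromosome, which is transcriptionally silenced in pachytene spermatocytes. Its level was 49.1 CPM in WT and 51.4 CPM in KO spermatogonia, 14.2 and 23.98 CPM in early spermatocytes, and 0 and 0.191 CPM in Piwil1 spermatocytes. Kif4 overlaps exons of Pdzd11 on the opposite strand, and the strand setting of the counting is not stated, so its low values are uncertain. Kif18a overlaps Mettl15, Kif20a overlaps Cdc23 and Kif22 overlaps Gm31749 in the same way.

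**Figure D2:**
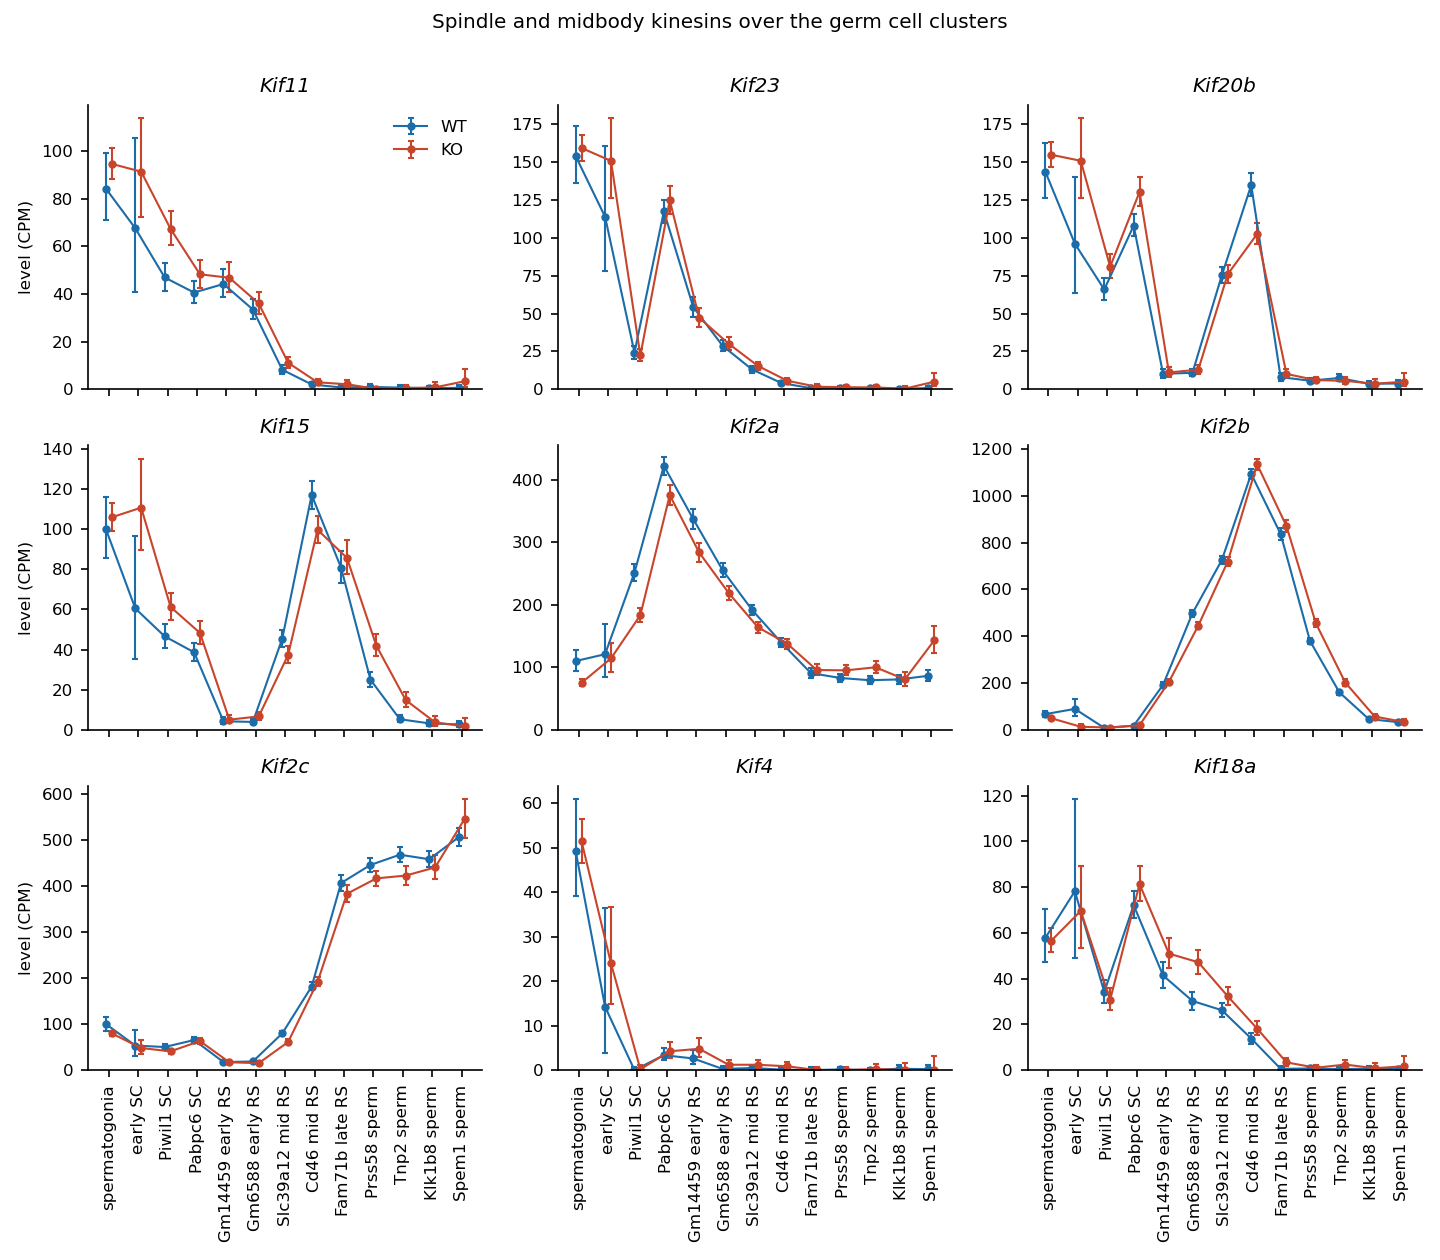
Level in CPM (vertical axis, from 0) of 9 spindle and midbody kinesins over 13 germ cell clusters in order of development (horizontal axis), WT in blue and KO in red, with bars for the exact Poisson 95% interval. Kif11, Kif23 and Kif4 are near 0 from mid-stage round spermatids on, Kif20b and Kif15 have a second high point in Cd46 mid-stage round spermatids, and Kif2a, Kif2b and Kif2c are highest one after the other.

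Kif2a, Kif2b and Kif2c are kinesin-13 genes, whose products remove tubulin from microtubule ends rather than walking. Each was highest in a different class, namely late spermatocytes, mid-stage round spermatids and sperm. Kif2a was highest in late spermatocytes, with 355 CPM in WT (345 to 366) and 283 CPM in KO (274 to 294). Within that class it was 423 and 376 CPM in Pabpc6 spermatocytes, and from Fam71b late round spermatids to Spem1 sperm it stayed between 79.3 and 90.8 CPM in WT and between 80.7 and 143 CPM in KO. Kif2a overlaps Dimt1 on the opposite strand.

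Kif2b was highest in mid-stage round spermatids, with 896 CPM in WT (883 to 910) and 924 CPM in KO (909 to 939). Its level was 17.02 and 18.85 CPM in Pabpc6 spermatocytes, 191 and 204 CPM in Gm14459 early round spermatids, 1094 and 1135 CPM in Cd46 mid-stage round spermatids, and 45.6 and 56.3 CPM in Klk1b8 sperm. A Kif2b UMI was found in 97.97% of WT and 98.8% of KO mid-stage round spermatids (94.8% and 96.4% after thinning). In late spermatocytes it was found in 15.2% and 14.7% (4.82% and 6.46% after thinning). Kif2b was the 1 member among the 2000 genes used for clustering, so its contrast between clusters is not independent of them.

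Kif2c was highest in sperm, with 467 CPM in WT (459 to 476) and 434 CPM in KO (423 to 446). It had 100 and 79.7 CPM in spermatogonia, 18.7 and 15.1 CPM in Gm6588 early round spermatids, 407 and 383 CPM in Fam71b late round spermatids and 506 and 546 CPM in Spem1 sperm. Kif2c in spermatogonia stood at 21.4% of its sperm level in WT and 18.3% in KO. The 29 sperm markers ranged from 9.36% to 21.3% there in WT and from 5.77% to 10.4% in KO. The part of sperm RNA in the spermatogonial values was not tested. A Kif2c UMI was found in 95.3% of WT and 94.8% of KO sperm (87.3% and 86.8% after thinning) and in 19.4% and 16.3% of early-stage round spermatids (7.29% and 6.98% after thinning). The early round spermatid clusters were thus a low point for Kif2c while Kif2b was already at 498 and 445 CPM in the Gm6588 cluster.

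Cilium and axoneme kinesins were spread over more classes: of 9 members in WT, 2 were highest in spermatogonia, 3 in late spermatocytes, 1 in early-stage round spermatids, 2 in sperm and 1 in Leydig cells. Kif3a and Kif3b encode the motor pair of heterotrimeric kinesin-2, which drives intraflagellar transport toward the tip. Kif3a stayed between 137 and 148 CPM from Piwil1 spermatocytes to Gm6588 early round spermatids in WT and between 165 and 173 CPM in KO. It had 157 and 176 CPM in spermatogonia and 17.01 and 18.58 CPM in Fam71b late round spermatids. Kif3b was at 26.9 and 26.3 CPM in spermatogonia, 209 and 235 CPM in Pabpc6 spermatocytes, and 13.95 and 11.40 CPM in Fam71b late round spermatids. The 2 partners shared the low level at late stages but not the level in spermatogonia, where Kif3a was near its maximum and Kif3b was not.

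Kif9, an axonemal motor of motile flagella, was highest in Gm14459 early round spermatids, at 221 CPM in WT and 193 CPM in KO. Kif6, its relative, was highest in Piwil1 spermatocytes at 23.9 and 23.3 CPM. Kif7, a regulator of Hedgehog signalling at the ciliary tip, was highest in Pabpc6 spermatocytes at 10.1 and 10.4 CPM, and it overlaps Ticrr and 9330171B17Rik on the opposite strand. Kif24, which acts on centrioles, had 17.6 and 13.6 CPM in spermatogonia. Kif19a, a ciliary length regulator, had 4 UMIs or fewer in Leydig cells of either library, so that its naming as highest there in WT rests on a wide interval (3.86 CPM, 1.05 to 9.87).

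Kif27 and Kif17 were late genes. Kif27, a relative of Kif7 needed for motile cilia, was at 35.7 CPM in WT spermatogonia, higher in each cluster from Pabpc6 spermatocytes (58.4 CPM) to Tnp2 sperm (237 CPM), and 101 CPM in Spem1 sperm. The KO values were 27.0, 57.1, 196 and 129 CPM, with the KO maximum of 202 CPM 1 cluster later, in Klk1b8 sperm. Kif27 in spermatogonia stood at 18.4% of its sperm level in WT, within the range of the sperm markers. In KO it stood at 14.4%, above that range, and the part of sperm RNA was not tested. Kif17, a kinesin-2 motor that in spermatids carries the CREM coactivator ACT (encoded by Fhl5), was at 6.83 and 5.99 CPM in Pabpc6 spermatocytes, 50.3 and 39.3 CPM in Gm6588 early round spermatids and 93.03 and 99.38 CPM in Spem1 sperm. Kif27 overlaps Gm26555 on the opposite strand, and Kif17 overlaps Sh2d5 on the same strand.

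CREM binds cAMP response elements, and the full palindrome TGACGTCA was present in 3 of 30 kinesin promoters, against 1.88% of all promoters. The 3 are shown because they include Kif17 and Kif5c, which were both high in spermatids, while the other, Kif18a, had 0.573 and 3.38 CPM in Fam71b late round spermatids. The capitals mark the palindrome.
Kif17, chr4:138262154-138262183, plus strand: attccgtcctgTGACGTCAcggaggttgcc
Kif5c, chr2:49619249-49619278, plus strand: gatctctgcagTGACGTCAccgtgccgagg
Kif18a, chr2:109280757-109280786, plus strand: gtctgacgtgcTGACGTCAtccgaacggca
The shorter form TGACG, which lies within the palindrome, was present in 14 of 30 kinesin promoters (46.7%) and in 21.0% of all promoters. The 14 include Kif1b, Kif4, Kif11, Kif15, Kif18a and Kif23, highest in WT spermatogonia, and Kif3b and Kif7, highest in late spermatocytes. Kif2c and Kif27, highest in sperm, lacked it. Kif2b, another of the 14, is shown for its level in spermatids, with TGACG in capitals.
Kif2b, chr11:91577600-91577629, minus strand: ttggtccctttgTGACGaaaggaccctcag

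Most cargo kinesins leaned either to an early and somatic set or to a late spermatid set. Of 10 cargo members counted in WT classes of at least 50 cells, 4 were highest in spermatogonia (Kif1b, Kif5b, Kif13b and Kif16b). Late-stage round spermatids held 4 (Kif1a, Kif5c, Kif13a and Kif21b), mid-stage ones 1 (Kif21a) and Leydig cells 1 (Kif1c). The 2 relatives Kif5b and Kif5c, both heavy chains of conventional kinesin, lay at opposite ends. Kif5b, the form found in most tissues, had 122 CPM in WT and 155 CPM in KO spermatogonia, 100 and 137 CPM in Leydig cells, 102 and 337 CPM in Sertoli cells, and 0.909 and 2.30 CPM in mid-stage round spermatids. Kif5c, known best from neurons, had 17.6 and 18.4 CPM in spermatogonia and 79.9 (72.4 to 87.9) and 61.4 CPM (54.6 to 68.9) in late-stage round spermatids. The same gene had 4.80 and 3.65 CPM in early-stage round spermatids, so the high level began after that class. Kif5a, the other neuronal heavy chain, had 44 UMIs in all of WT and 167 in all of KO, and was highest in spermatogonia at 9.36 and 11.1 CPM.

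Kif1a, a motor of synaptic vesicle precursors, was at or below 1.76 CPM in spermatogonia and 16.4 and 15.8 CPM in late-stage round spermatids of WT and KO. Its relative Kif1b was highest at the other end, with 125 and 98.9 CPM in spermatogonia, 14.3 and 13.3 CPM in late-stage round spermatids and 63.6 and 72.1 CPM in Leydig cells. Kif1c, which moves vesicles in many somatic cells, had 19.3 and 14.6 CPM in Leydig cells, 11.1 and 6.69 CPM in spermatogonia, and under 1 CPM in every cluster from Piwil1 spermatocytes to Klk1b8 sperm in both libraries. The 3 relatives thus had a late spermatid, a broad and a somatic pattern.

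Kif21a and Kif21b, which restrain microtubule growth, were both found in spermatids. Kif21a had 38.3 and 27.5 CPM in Slc39a12 mid-stage round spermatids and 86.9 and 222 CPM in Sertoli cells. Kif21b had 34.4 and 22.6 CPM in late-stage round spermatids and 42.1 and 27.8 CPM in Spem1 sperm. Kif13b, a transporter of membrane proteins, had 46.2 and 52.4 CPM in spermatogonia and 9.64 and 16.9 CPM in Leydig cells, and Kif16b, a motor of early endosomes, had 25.2 and 21.4 CPM in spermatogonia. Kif13a had 96 UMIs over the WT library and 132 over the KO library, and was below 10 CPM in each class with at least 50 cells. Its WT levels of 2.10 CPM in late-stage and 2.07 CPM in mid-stage round spermatids were nearly equal. In KO it was highest in early spermatocytes, at 3.43 CPM. Kif1bp was highest in early-stage round spermatids, with 66.9 CPM in WT and 58.1 CPM in KO, and it overlaps 4933428P19Rik on the opposite strand.

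**Figure D3:**
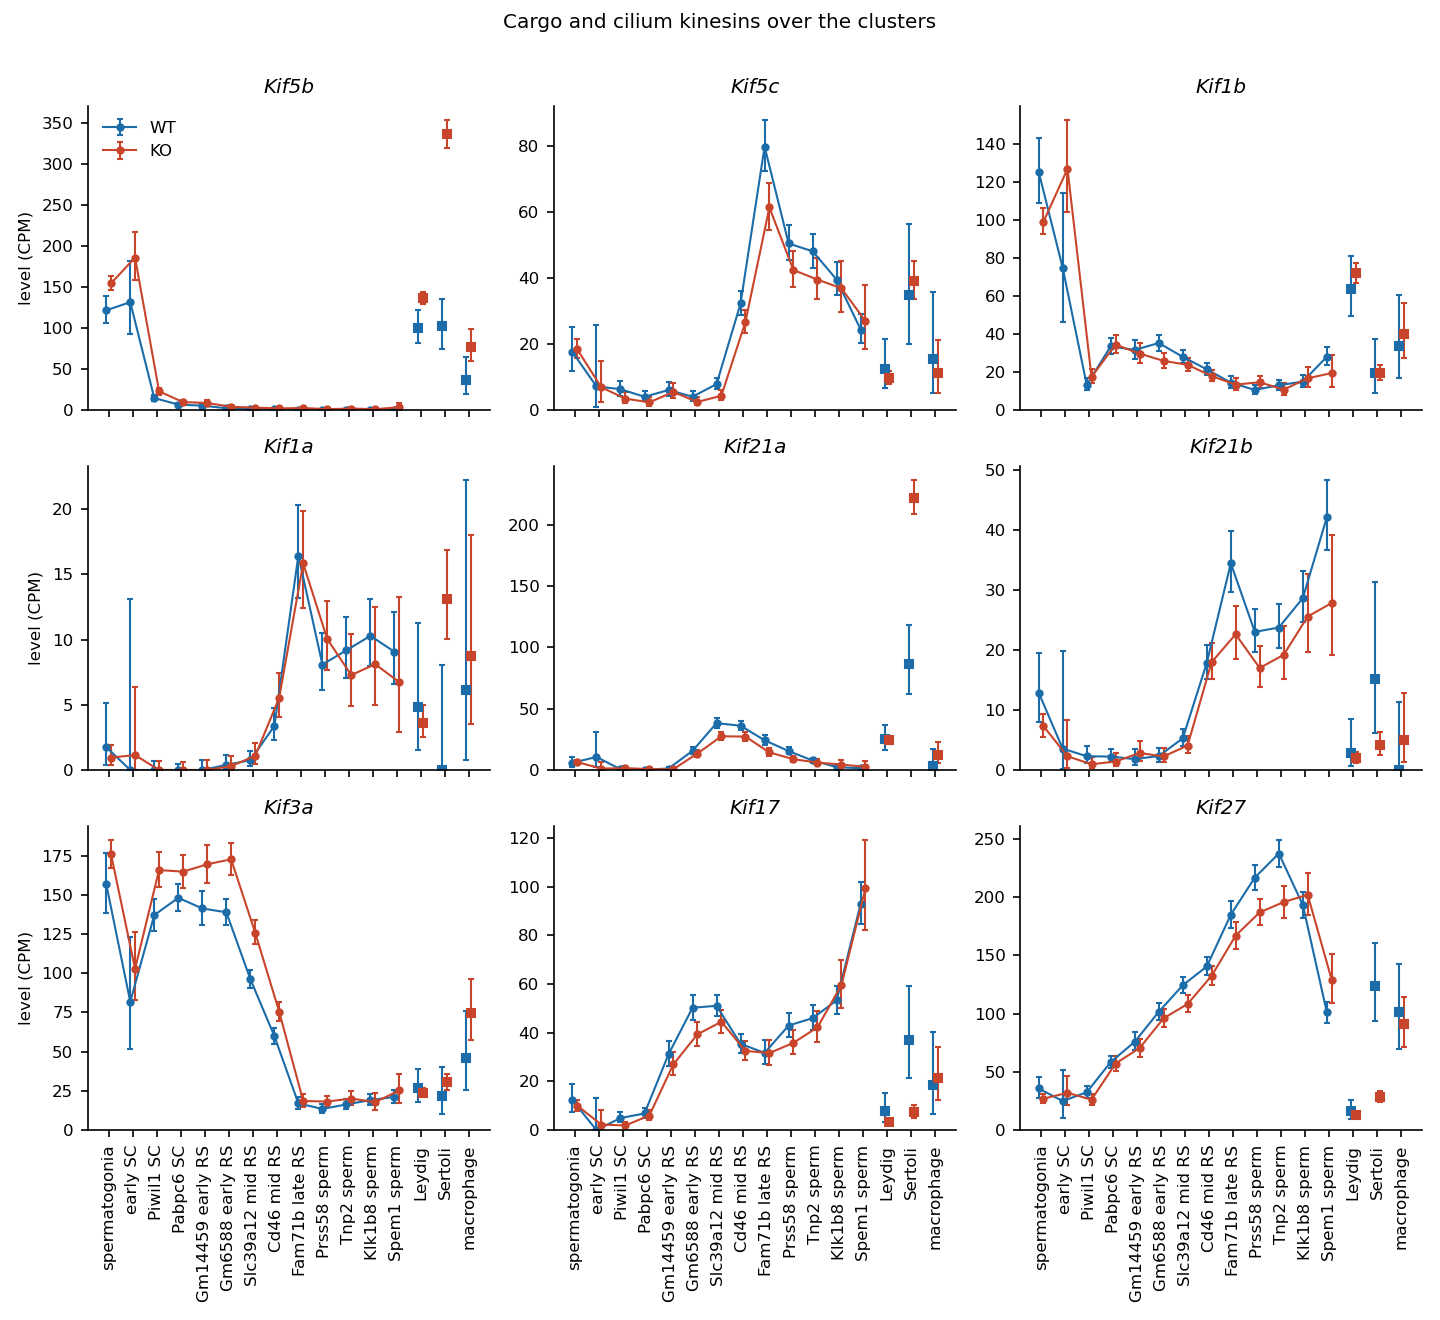
Level in CPM (vertical axis, from 0) of 9 cargo and cilium kinesins over 13 germ cell clusters (circles joined by lines) and 3 somatic clusters (squares), WT in blue and KO in red, with exact Poisson 95% intervals. Kif5b is high in spermatogonia, early spermatocytes and somatic cells and Kif5c in late round spermatids and sperm, and the KO Sertoli values of Kif5b (337 CPM) and Kif21a (222 CPM) lie above the WT values.

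Genes that work with kinesins gave a frame for these profiles. Of 22 spindle partners, 12 were highest in WT spermatogonia, 9 in late spermatocytes and 1 in mid-stage round spermatids. Of 14 intraflagellar transport genes, 7 were highest in late spermatocytes, 5 in early-stage round spermatids, 1 in sperm and 1 in Leydig cells. Kifap3, the cargo-binding subunit of heterotrimeric kinesin-2, was highest in mid-stage round spermatids. Crem was highest in early-stage round spermatids, with 715 CPM in WT and 667 CPM in KO, and Fhl5 in late-stage round spermatids, with 1939 and 1747 CPM.

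The comparison of KO with WT asked whether the kinesins differ in level within a class. A member entered where its pooled level predicted at least 10 UMIs in the smaller sum, which gave 29 members in spermatogonia, 13 in early and 29 in late spermatocytes, 31, 32 and 19 in early-, mid- and late-stage round spermatids, 21 in sperm, 15 in Leydig cells, 10 in Sertoli cells and 12 in macrophages. Over the 7 germ cell classes, 8 of these values were at least 2-fold higher in KO and 2 at least 2-fold lower. Of all genes, 3.48% to 11.9% were higher and 2.49% to 5.53% lower by that size, depending on the class. In late spermatocytes and late-stage round spermatids 0 members passed 2-fold, where 5.74% and 9.23% of all genes were higher and 2.77% and 2.62% lower by that size.

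**Figure D4:**
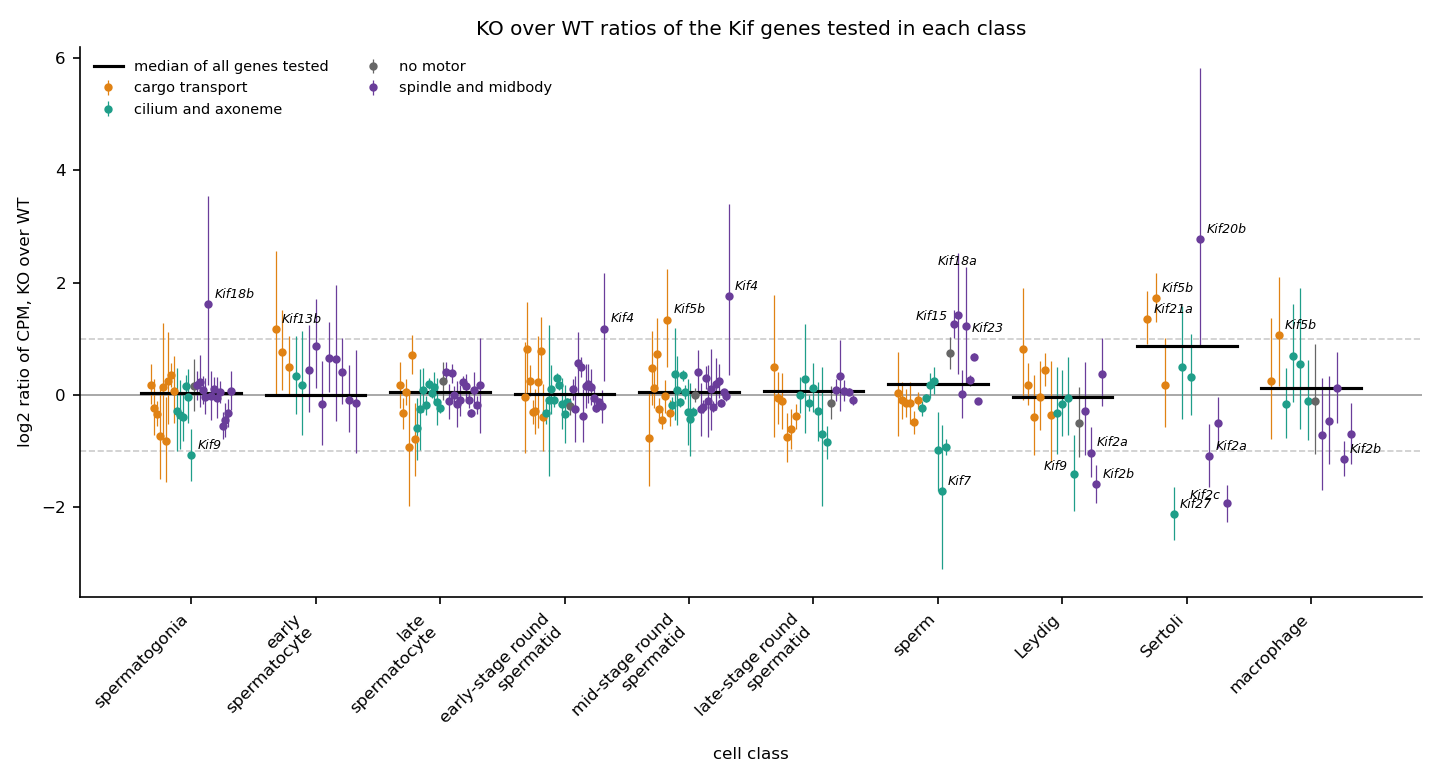
Log2 ratio of CPM, KO over WT (vertical axis), of every kinesin gene that entered in each of 10 classes (horizontal axis), coloured by role, with 95% counting intervals, the median of all genes as a black bar and 2-fold as dashed lines. Most germ cell values lie within 2-fold, and the named points are those beyond it.

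In spermatogonia 1 member passed 2-fold in each direction, beside 3.82% of all genes higher and 5.53% lower. Kif18b had 4 WT and 60 KO UMIs (2.34 and 7.17 CPM), which put its log2 ratio at 1.61 (0.18 to 3.54). Without cells called doublets it had 3 and 51 UMIs, too few for a ratio under the same filter. Kif9 had 58 and 135 UMIs (33.9 and 16.1 CPM), which put its log2 ratio at -1.07 (-1.53 to -0.60), which was -0.06 after cells called doublets were left out. The spermatogonia also held the sperm marker list at 34297 CPM in WT and 18083 CPM in KO, with all 29 markers present in both, and its part in the Kif9 value was not tested. The most abundant spindle, cilium and cargo members here differed little: Kif23 by 0.05 (-0.14 to 0.25), Kif3a by 0.17 (-0.02 to 0.36) and Kif5b by 0.35 (0.13 to 0.56) on the log2 scale.

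In early spermatocytes 1 member was 2-fold higher and 0 lower, beside 3.48% and 3.95% of all genes. It was Kif13b, with 7 and 49 UMIs (24.9 and 56.0 CPM), for a log2 ratio of 1.17 (0.02 to 2.56). Of the 13 members that entered, 10 were above 0 and 3 below. Their median was 0.43, while the median of all genes was 0.0001. At 1.5-fold 5 members were higher and 0 lower, beside 450 and 477 of 4053 genes. The 35 WT cells of this class limit every value in it.

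In early-stage round spermatids Kif4 was 2-fold higher in KO, with 15 and 30 UMIs (1.18 and 2.67 CPM), for a log2 ratio of 1.18 (0.24 to 2.18), beside 4.63% of all genes higher and 3.63% lower. In mid-stage round spermatids 2 members were higher and 0 lower, beside 9.75% and 2.49%. Kif4 had 6 and 17 UMIs there, a log2 ratio of 1.77 (0.36 to 3.40). Pdzd11, which overlaps Kif4 on the opposite strand, had 165 UMIs in the WT library and 1483 in the KO library, and its part in the Kif4 values was not tested. Kif5b had 18 and 38 UMIs, which put its log2 ratio at 1.34 (0.50 to 2.24).

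In sperm 3 members were 2-fold higher and 1 lower, beside 11.9% and 2.59% of all genes, and the median of all genes there was 0.20 on the log2 scale. Kif15 had 246 and 314 UMIs (9.68 and 23.2 CPM), which put its log2 ratio at 1.26 (1.01 to 1.51). Within single sperm clusters Kif15 had 25.0 and 41.9 CPM in Prss58 sperm and 5.22 and 14.8 CPM in Tnp2 sperm. With equal weight for each cluster its ratio was 0.79. The KO sperm class held relatively more Prss58 cells, 483 of 1311 against 536 of 2404 in WT. Kif18a (14 and 20 UMIs, 1.42) and Kif23 (16 and 20 UMIs, 1.23) were at or under 1.48 CPM in both libraries. Kif7 had 43 and 7 UMIs, which put its log2 ratio at -1.71 (-3.11 to -0.55), which was -0.94 with equal weight per cluster. Kif2c, the spindle member with the most UMIs in sperm, differed by -0.10 (-0.15 to -0.06), Kif27 by -0.05 (-0.12 to 0.02) and Kif5c by -0.10 (-0.25 to 0.05).

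Kif9 differed in 1 direction over the germ cell clusters. Its level was below that of WT in all 12 clusters in which it entered, with 11 intervals below 0 and log2 ratios from -1.11 to -0.10 around a median of -0.56. Without cells called doublets it was also below WT in all 12, with 10 intervals below 0, and its ratio in spermatogonia was -0.06 (-0.96 to 0.97) in place of -1.07. Of all genes that entered in at least 12 germ cell clusters, 6.43% were lower in each and 4.22% higher in each, and of the 10 kinesins among them Kif9 was the 1 lower in each and 0 were higher in each. For genes that entered in all 13 clusters the shares were 5.44% and 4.41%, and 0 of the 5 kinesins among them moved 1 way throughout. By class its levels in WT and KO were 185 and 157 CPM in late spermatocytes, 206 and 187 CPM in early-stage, 145 and 118 CPM in mid-stage and 56.8 and 31.7 CPM in late-stage round spermatids, and 80.4 and 42.2 CPM in sperm. The log2 ratio was -0.24 (-0.33 to -0.15) in late spermatocytes, -0.84 (-1.13 to -0.55) in late-stage round spermatids and -0.93 (-1.07 to -0.79) in sperm. Over the other processing settings it ranged from -0.91 to -0.67 in late-stage round spermatids and from -1.13 to -0.81 in sperm. The difference was thus small in early haploid cells and larger in late ones. Among sperm clusters without cells called doublets, the log2 ratio was -0.92 in Prss58, -1.11 in Tnp2, -0.57 in Klk1b8 and -0.72 in Spem1 sperm.

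Kif3a was above the WT level in 12 of 13 germ cell clusters, with 7 intervals above 0. Of all genes that entered in 13 clusters, 11.5% were higher in at least 12, and Kif3a was the 1 of 5 kinesins. Its level in early-stage round spermatids was 140 CPM in WT and 171 CPM in KO, a log2 ratio of 0.29 (0.20 to 0.39), and 79.4 and 101 CPM in mid-stage round spermatids, a ratio of 0.35 (0.25 to 0.45). Its partner Kif3b differed by 0.17 (0.08 to 0.27) and 0.05 (-0.07 to 0.17) in the same classes. Kif11 was higher in 8 of 8 clusters, with 3 intervals above 0, as were 11.6% of all genes and 1 of 5 kinesins that entered in 8. Kif13b was higher in 7 of 7, with 2 intervals above 0, as were 11.3% of all genes and 2 of 6 kinesins that entered in 7. The medians of their log2 ratios over clusters were 0.34 for Kif11, 0.47 for Kif13b and 0.27 for Kif3a.

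Among WT classes of at least 50 cells, the cargo and cilium genes highest from mid-stage round spermatids on were Kif1a, Kif5c, Kif13a, Kif21a, Kif21b, Kif17 and Kif27. In the 48 WT Sertoli cells Kif21a stood at 233% of its mid-stage level. Kif5c was lower in KO in 10 of 12 germ cell clusters (6 intervals below 0), and Kif17 and Kif27 were lower in 10 of 12 (4 each, and 1 interval above 0 for Kif27). Of all genes that entered in 12 clusters, 23.0% were lower in at least 10, and 4 of 5 kinesins were. Kif21b was lower in 9 of 11 clusters (4 intervals below 0), beside 18.9% of all genes and as the 1 of 4 kinesins. Kif21a was lower in 6 of 7 (4 intervals below 0), beside 17.4% of all genes and as the 1 of 6 kinesins. Kif1a was lower in 4 of 6, with 0 intervals below 0 and 1 above, and Kif13a in 2 of 3, with 1 below. In late-stage round spermatids the log2 ratio of Kif5c was -0.38 (-0.60 to -0.16), of Kif21b -0.61 (-0.97 to -0.25) and of Kif21a -0.76 (-1.20 to -0.32). In that class 5 of 6 cargo members were below 0, with a median of -0.24, while the median of all genes was 0.07. The one above 0 was Kif13a, with 11 and 14 UMIs and a log2 ratio of 0.49 (-0.75 to 1.77), which was -0.19 at clustering resolution 0.8. Kif1a, with 16.4 and 15.8 CPM, differed by -0.05 (-0.52 to 0.41). The cilium genes Kif27 and Kif17 differed by -0.15 (-0.29 to -0.01) and -0.003 (-0.33 to 0.32).

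Kif5b in KO lay above WT in 7 of 7 germ cell clusters, with 3 intervals above 0, beside the 11.3% of all genes given for Kif13b. In late spermatocytes it had 9.63 CPM in WT and 15.8 CPM in KO, a log2 ratio of 0.72 (0.38 to 1.06). Kif5b is also a gene of Leydig and Sertoli cells, and markers of both were higher in the KO germ cells: the summed level of 15 Leydig markers in mid-stage round spermatids was 15.9 CPM in WT and 245 CPM in KO, and that of 18 Sertoli markers 15.5 and 93.1 CPM. A Kif5b UMI was found in 1.29% of WT and 3.52% of KO mid-stage round spermatids, or 0.552% and 1.32% after thinning. The part of somatic RNA in the germ cell values of Kif5b was not tested.

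**Figure D5:**
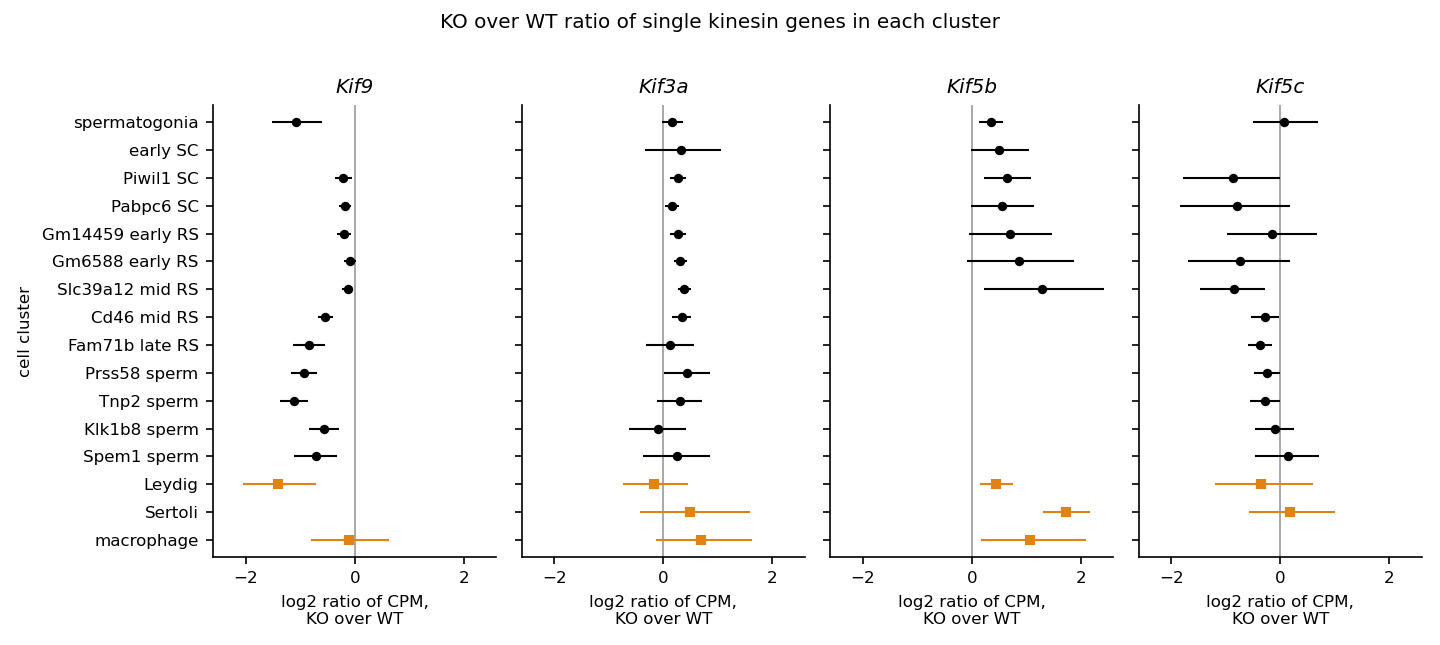
Log2 ratio of CPM, KO over WT (horizontal axis), of Kif9, Kif3a, Kif5b and Kif5c in each cluster in which they entered (vertical axis, germ cells as circles, somatic cells as squares), with 95% counting intervals. Kif9 lies below 0 in all 12 germ cell clusters shown, with its lowest values from late-stage round spermatids to Tnp2 sperm and in spermatogonia, Kif3a lies above 0 in 12 of 13, and Kif5b lies above 0 in every cluster shown.

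In Leydig cells 0 members were 2-fold higher and 3 lower, beside 4.62% and 9.47% of all genes. Kif2b had 97 WT and 318 KO UMIs (93.5 and 31.0 CPM), which put its log2 ratio at -1.59 (-1.93 to -1.25). Kif9 had 25 and 93 UMIs (24.1 and 9.06 CPM), a ratio of -1.41 (-2.06 to -0.71), and Kif2a 51 and 247 UMIs (49.2 and 24.1 CPM), a ratio of -1.03 (-1.47 to -0.57). All 3 are genes of spermatocytes or spermatids. The 20 markers of mid-stage round spermatids, all present, summed to 2469 CPM in WT and 559 CPM in KO Leydig cells. Kif2b in Leydig cells stood at 10.4% of its mid-stage spermatid level in WT and 3.35% in KO, against a marker range of 5.58% to 16.6% in WT and 2.18% to 3.88% in KO. Kif9 stood at 16.6% and 7.69% and Kif2a at 29.3% and 15.9%. Both were above that range in both libraries, Kif9 in WT only narrowly (16.63% against 16.57%). The part of spermatid RNA in the 3 values was not tested. At clustering resolution 0.8 the ratios of Kif2b and Kif2a were -0.95 and -0.22. Kif5b, the cargo member with the most UMIs in Leydig cells, differed by 0.45 (0.16 to 0.75).

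In Sertoli cells 3 members were 2-fold higher and 3 lower, beside 43.2% and 12.7% of all genes, and the median of all genes was 0.87. Kif5b had 47 UMIs in 48 WT cells and 1567 in 468 KO cells (102 and 337 CPM), a log2 ratio of 1.72 (1.30 to 2.17). Kif21a had 40 and 1035 UMIs (86.9 and 222 CPM), a ratio of 1.36 (0.90 to 1.85), and Kif20b 2 and 138 UMIs, a ratio of 2.77 (0.89 to 5.83). Relative to the other genes of the class, with median of ratios scaling, Kif5b and Kif21a were at 0.86 and 0.49. A Kif5b UMI was found in 33.3% of WT and 84.4% of KO Sertoli cells (22.9% and 73.9% after thinning).

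The 3 lower members in Sertoli cells were Kif27 (124 and 28.4 CPM, -2.13), Kif2c (232 and 60.8 CPM, -1.93) and Kif2a (73.8 and 34.6 CPM, -1.09). Kif27 and Kif2c are sperm genes in these libraries, and WT Sertoli cells carried the 29 sperm markers at 164854 CPM against 35911 CPM in KO. Kif2c in Sertoli cells stood at 49.8% of its sperm level in WT and 14.002% in KO, and the median sperm marker at 53.3% and 13.96%. Kif27 stood at 63.9% and 15.2% of its sperm level, and Kif2a at 90.1% and 35.2%. All 3 lay within the range of the sperm markers in WT. In KO, where the markers ranged from 11.2% to 18.99%, Kif2c and Kif27 lay within the range and Kif2a above it. Sertoli markers themselves summed to 13318 CPM in WT and 31294 CPM in KO. The WT Sertoli values are thus those of 48 cells with much sperm RNA, whose part in the 6 values was not tested.

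In macrophages, with 26 and 81 cells, 1 member was 2-fold higher and 1 lower, beside 15.1% and 9.03% of all genes. Kif5b had 12 and 62 UMIs (36.9 and 77.3 CPM), which put its log2 ratio at 1.07 (0.16 to 2.10). Kif2b had 161 and 180 UMIs (495 and 225 CPM), a ratio of -1.14 (-1.45 to -0.82). It stood at 55.2% and 24.3% of its mid-stage spermatid level, against a marker median of 43.5% and 30.1%.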

How the data were processed

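The deposited values are UMI counts per gene and barcode, 1 table per library, made by the authors from GEXSCOPE libraries. The submitters' processing notes name FastQC 0.11.7, fastp, STAR 2.5.3a, featureCounts 1.6.2 and Seurat 3.2.2n. The methods name a human build although the symbols are those of mouse, and give no strand setting, and the sources used here differ on how many mice were behind each library. The study's filter of over 500 genes removed 0 barcodes.

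Cells were integrated and clustered with Seurat 5.3.0 in R 4.3.3 (Matrix 1.6.5) at the study's settings: 2000 features, 20 anchor dimensions, 30 principal components, resolution 0.3, seed 1. A cluster took a class name from at least 3 detected markers, each detected in 10% or more of the cluster and at least 2-fold above the other cells. Scrublet (scanpy 1.11.5, expected rate 0.06) called 243 WT (4.22%) and 348 KO (4.96%) doublets, which were kept.

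UMIs were summed per library and class in Python 3.11.15 (numpy 2.4.6, scipy 1.17.1, pandas 2.3.3) and given as CPM with exact Poisson intervals. The interval of a ratio is the exact conditional one for a pair of Poisson counts, and that of a share is Clopper-Pearson, all at 95%. A sum of 0 was taken at 3 UMIs. Thinning to 5000 UMIs left out shallower cells, 0 in WT and up to 66 per class in KO. No test across libraries was made, and summing was tested on simulated counts. Alternatives changed the clustering, filters, scaling and weighting. Genes with at least 100 UMIs were described singly, and ratios singly past 2-fold or for the most abundant member of each role group. Other ratios, such as the directions over clusters, were chosen after their values were seen.

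Gene positions are from GENCODE vM21 and promoters (250 bases before to 50 after the start) from RefSeq, both on GRCm38. Protein sequences were not analysed here. The members, role groups and gene lists were chosen with earlier results of these data known.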

Additional observations from a re-analysis of the deposited data

How the results depend on the processing

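No paired analysis was possible because each genotype has 1 library. Against the reported single ratios, 11 of 203 moved beyond their interval at resolution 0.8, 12 of 183 without integration, 17 of 211 with median of ratios scaling, 5 of 211 with equal weight per cluster and 3 of 201 without doublets. Of 211 ratios, 54 had the opposite sign in at least 1 setting, among them 4 of the 85 whose interval excluded 0 (Kif2b in spermatogonia and mid-stage round spermatids, Kif17 in sperm and Kif2c in macrophages) and 0 of the 21 past 2-fold, where these could be computed. Summed over germ cell classes, the 8 values higher in KO became 22 with no filter on low counts and 18 at 1.5-fold, and the 2 lower became 4 at resolution 0.8, 4 with median of ratios scaling, 1 with equal weight per cluster, 9 with no filter and 14 at 1.5-fold. In Leydig cells the 0 higher became 2 with no filter and 1 at 1.5-fold, and the 3 lower became 0 at resolution 0.8, 1 without integration and 8 with no filter. In Sertoli cells the 3 higher became 1 without integration, 1 with median of ratios scaling and 7 with no filter, and the 3 lower became 12 with no filter. In macrophages the 1 higher became 2 at resolution 0.8, with totals free of mitochondrial and ribosomal protein genes or at 1.5-fold, 0 without integration, with Kif genes left out of clustering or with median of ratios scaling, and 8 with no filter. The 1 lower became 0 at resolution 0.8, without integration or with Kif genes left out, 2 with no filter and 3 at 1.5-fold. Counts over all genes moved as well. With no filter 1133 of 18012 genes were higher and 5157 lower in Leydig cells, against 348 and 713 of 7532 with it. In Sertoli cells they were 4217 and 5079 of 16294, against 2517 and 742 of 5833. Macrophages had 2687 and 1342 of 12704, against 701 and 418 of 4631. Sperm had 3570 and 1044 of 17663, against 1358 and 294 of 11367. At resolution 0.8 Leydig cells had 323 and 161 of 6497. The median of spindle members in Leydig cells, -0.66, was -1.31 without doublets and 0.015 with no filter, that of cilium members, -0.25, was -1.16 with no filter, and that of spindle members in sperm, 0.68, was 0.021 with no filter. Thinning to 5000 UMIs lowered the shares of cells: Kif2b to 94.8% (WT) and 96.4% (KO) in mid-stage round spermatids and to 4.82% and 6.46% in late spermatocytes, Kif2c to 87.3% and 86.8% in sperm and to 7.29% and 6.98% in early-stage round spermatids, Kif11 to 25.8% and 34.6% in spermatogonia and to 0.374% in WT sperm, and Kif5b to 73.9% in KO Sertoli cells and to 0.552% and 1.32% in mid-stage round spermatids. The highest class was shared by 25 of 33 members with classes of at least 20 cells, an alternative chosen after seeing the data, as was the limit to classes common to both libraries. Where a filter is dropped, genes with few UMIs enter; for the other settings the cause was not tested.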

Other observations

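Motors outside the symbol rule were also measured. Cenpe, the kinetochore motor of the kinesin-7 family, had 228 CPM in WT and 287 CPM in KO spermatogonia, 209 and 209 CPM in late spermatocytes, 108 and 130 CPM in early-stage round spermatids, and 2.05 and 1.85 CPM in sperm. Kifc1, Kifc5b and Cenpe were highest in WT spermatogonia, Kifc2 in early-stage and Kifc3 in late-stage round spermatids, where Kifc3 had 13.8 CPM in WT and 10.3 CPM in KO. Among partner genes in spermatogonia, late spermatocytes and early-stage round spermatids, 0 were past 2-fold. In early spermatocytes, with 35 WT cells, Anln, a cytokinesis scaffold gene, was at a log2 ratio of 1.15 (0.18 to 2.27). Ift43, an intraflagellar transport gene, was at -1.23 (-1.91 to -0.55) and Fhl5 at -1.88 (-2.68 to -1.10). In this class 3.48% of all genes were 2-fold higher and 3.95% lower. The 20 markers of mid-stage round spermatids summed to 1352 CPM in WT and 322 CPM in KO early spermatocytes. The part of spermatid RNA in the Fhl5 value was not tested. Values past 2-fold in later germ cells were all higher in KO. They were Mad2l1, a spindle checkpoint gene, at a log2 ratio of 1.53 in mid-stage round spermatids, Birc5, a chromosomal passenger gene, at 1.11 in sperm, and Tsn at 1.603 in late-stage round spermatids and 1.43 in sperm. Birc5 had 28.9 CPM in WT and 31.2 CPM in KO late-stage round spermatids, and 7.98 and 17.3 CPM in sperm. The KO sperm class held relatively more Prss58 cells, whose part in the sperm values of Birc5 and Tsn was not tested. The shares of all genes 2-fold higher were 9.75%, 9.23% and 11.9% in mid-stage and late-stage round spermatids and sperm.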
